A study of Homo sapiens with 6 samples.

Results

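The zinc finger genes of human chromosome 19 were described in K562 cells exposed to calactin. A gene was a member if its probe set carried a single symbol that starts with ZNF and a digit and the gene annotation placed it on chromosome 19. Of several probe sets of a gene, the one brightest on average across the 6 arrays was taken. This gave 234 members of 19775 genes measured, 213 of them protein-coding, 14 long non-coding and 7 transcribed pseudogenes. The 268 other ZNF genes, on 21 other chromosomes, and the 1086 other genes of chromosome 19 served only for comparison. K562 is an established line of human chronic myeloid leukaemia. The 3 calactin samples had received 0.15 mM calactin and were harvested at 12 h, and the 3 untreated samples came from the same line without the compound. Calactin is a cardenolide, a plant steroid of the class that inhibits the sodium pump, and the millimolar unit of the dose rests on the labels alone. The labels call the 3 samples of a group biological replicates and do not say whether these were separate cultures, so p-values measure the spread between these samples.

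ZNF genes of this kind encode C2H2 zinc finger proteins, in which rows of zinc-binding fingers read DNA. Many carry a KRAB domain, which recruits TRIM28 and through it the histone methyltransferase SETDB1 and other silencing factors. They are known for silencing transposable elements and lie in long clusters of related genes, many of them on chromosome 19. Related members share sequence, so some array probes can read more than 1 of them. The probe set of 69 members had an identifier that marks shared sequence, among them ZNF581, ZNF765, ZNF222, ZNF442, ZNF90 and ZNF324 of those called below.

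Total RNA was measured on 1-colour Affymetrix arrays whose deposited values are linear intensities, called signal below. The number of arrays limits the precision. All 10 measured genes of a list of K562 markers lay above the median signal. Of markers of other cells, 1 of 4 T cell genes, 0 of 3 B cell genes, 2 of 3 monocyte genes and 2 of 4 epithelial genes did so. The T cell list summed to a signal of 1748 to 1927 in calactin arrays and of 2240 to 2646 in untreated ones, nearly all of it CD3D. The epithelial list summed to 4291 to 4731 in calactin arrays, against 5300 to 5580 in untreated ones. The monocyte list summed to 678 to 824 in calactin arrays, against 854 to 908 in untreated ones, and the B cell list to 72.3 to 105, against 88.9 to 108. No listed marker was at 0, and the part of these genes in the results below was not tested. RNA from bulk cells cannot tell fewer cells that express a gene from less RNA per cell.

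Before any comparison, replicate 2 stood apart for the members, more so among the untreated arrays than among the calactin arrays. Among the untreated arrays, replicate 2 gave the highest signal for 139 of 234 members, or 59.4%, beside 33.0% of all genes. For the 116 members above the median signal, the share was 69.0%. It was 56.4% for other ZNF genes, 25.2% for other genes of chromosome 19 and 37.4% for all genes above the median signal. The median of these 116 members was 7.46, 7.69 and 7.54 on the log2 scale in calactin replicates 1, 2 and 3, and 7.62, 8.14 and 7.83 in untreated replicates 1, 2 and 3. The medians of the groups thus overlapped, and untreated replicate 2 was the highest of the 6. A bright member lay at the median 0.41 (log2) higher in untreated replicate 2 than in the mean of replicates 1 and 3, against 0.0029 for all bright genes. In calactin replicate 2 this difference was 0.13, against 0.010 for all bright genes. That array was the highest calactin array for 53.4% of these 116 members, against 35.6% of all bright genes. The ratio of control probes at the 3' and 5' ends of a transcript is a sign of RNA quality. For actin it was 1.23, 1.17 and 1.41 in calactin replicates 1 to 3 and 1.23, 1.24 and 1.49 in untreated replicates 1 to 3. For GAPDH it was lowest in replicate 2 of both groups, by small margins. The GAPDH ratio was 0.947, 0.936 and 0.976 in untreated replicates 1 to 3. It was 0.952 and 0.938 in calactin replicates 1 and 2, and higher in calactin replicate 3. The cause of the higher member signal in untreated replicate 2 was not tested. Values below are also given without untreated replicate 2 where it moves a named member by over 1.5 times.

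**Figure D1:**
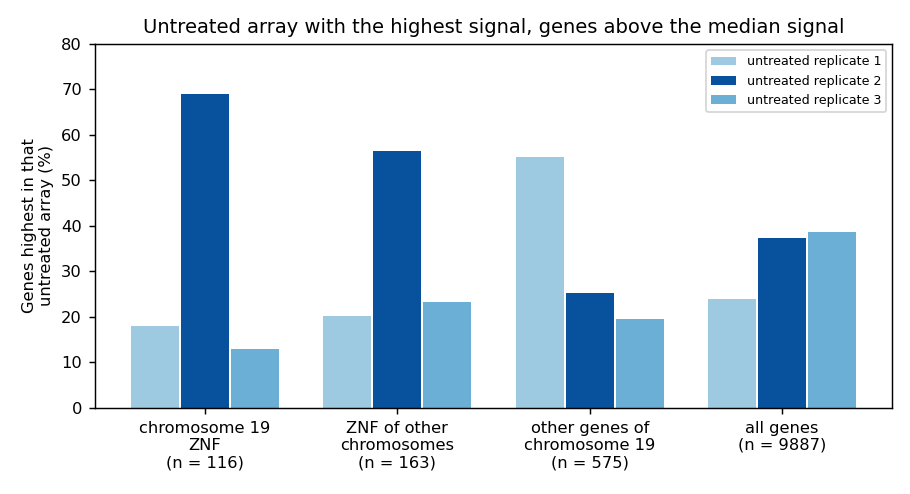
Share of genes, in percent, whose highest untreated signal came from untreated replicate 1, 2 or 3, for genes above the median signal, in bars from 0. Replicate 2 held the highest signal for 69.0% of chromosome 19 ZNF genes and 37.4% of all genes.

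Most members did not pass the test, and those that did were mainly lower with calactin. By limma with Benjamini-Hochberg adjustment over all 19775 genes and a threshold of 0.05, 25 members fell, 5 rose and 204 were not called. The 25 were 10.7% of the members, beside 16.5% of all genes that fell. The 5 were 2.14%, beside 4.93% of all genes that rose. A fall of at least 2-fold, on the scale of log2(signal + 16) used throughout, was found for 9 members, beside 4.4% of all genes. A rise of that size was found for 1 member, ZNF431, beside 0.531% of all genes. The 3 calactin arrays lay below the 3 untreated arrays for 46 members, beside 24.4% of all genes, and above them for 10, beside 10.3%. At an unadjusted p under 0.05, 43 members were lower and 8 higher, beside 22.4% and 8.43% of all genes. None of the 14 non-coding genes and none of the 7 pseudogenes was called in the reported fit. Of all genes, 16.5% fell and 4.93% rose. Some were dim, such as ZNF561-AS1 at 13.8 to 31.2, and others, such as ZNF788P, were not. The pseudogene ZNF826P was called lower with the mean of its probe sets and when unshared sequence was preferred. ZNF788P, also a pseudogene, was called lower with the replicate number as a block and among genes above the median signal alone. ZNF433-AS1, a non-coding gene, was called higher with poly-A spike scaling. In all, 161 members, or 68.8%, had a negative log2 fold change, beside 58.1% of all genes, and the median over the members was -0.13, beside -0.06 over all genes. By pair of same-numbered samples, the member median was -0.06, -0.22 and -0.12. The reported fit does not use these pairs. With the replicate number as a block, 40 members fell and 7 rose, beside 20.2% and 7.09% of all genes. The sign of the member median depended on how arrays were scaled. It was 0.0089 after quantile normalization, beside 0.028 for all genes, and 0.016 after median centring, beside 0.087. With poly-A spike scaling it was 0.30, beside 0.34. The median signal of all genes was 66.9 to 68.7 in calactin arrays and 74.3 to 78.0 in untreated ones. The poly-A spikes gave 893, 1137 and 78.7 in calactin replicates 1 to 3 and 1319, 1928 and 110 in untreated ones. They were thus scaled within same-numbered samples. Of the members called, 83.3% were lower as deposited, 64.3% after quantile normalization, 69.2% after median centring and 14.5% with poly-A spike scaling. The same shares over all genes were 77.0%, 53.4%, 55.7% and 12.2%. Quantile normalization left 18 falls and 10 rises, beside 11.3% and 9.84% of all genes, and median centring 18 and 8, beside 11.6% and 9.2%. Hybridisation spike scaling left 16 and 4, beside 7.59% and 3.19%, and poly-A spike scaling, which includes the block, 12 and 71, beside 5.3% and 38.2%. With eBayes without a variance trend, 25 members fell and 3 rose, beside 14.6% and 3.99% of all genes. With replicates 1 and 2 alone, ZNF792, ZNF581, ZNF738, ZNF57 and ZNF442 fell and no member rose, beside 7.09% and 1.68%. Without calactin replicate 3, 15 fell and 2 rose, beside 13.1% and 3.26%, and without untreated replicate 1, 30 fell and 3 rose, beside 14.7% and 3.69%. Without untreated replicate 2, the member median was -0.08, as it was for all genes, with 21 members lower and 8 higher, beside 15.3% and 5.13% of all genes.

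ZNF792 had the largest fall of the members, 2.06 on the log2 scale. Its signal was 24.8, 27.4 and 22.1 with calactin, against 163, 116 and 189 in untreated cells. The groups were far apart, and the calactin signal lay below the median of all genes (limma, log2 fold change -2.06, SE 0.19, adjusted p = 0.000191). With a pseudocount of 64 in place of 16 its log2 fold change was -1.30. ZNF581 gave 138, 199 and 193 with calactin, against 653, 638 and 595 in untreated cells. Every calactin array of ZNF581 was thus far below every untreated one (limma, log2 fold change -1.76, SE 0.15, adjusted p = 0.000123). ZNF738 had a signal of 114, 111 and 117 with calactin, against 332, 377 and 359 in untreated cells. It had the smallest SE of these genes, 0.12, with means of 113.9 ± 3.03 with calactin and 355.9 ± 22.3 in untreated cells (SD, n = 3 each), and limma gave -1.52 with an adjusted p of 0.000103. Its other probe set was dim, at 5.49 to 12.5 with calactin and 8.29 to 22.6 in untreated cells, and was not called, and the mean of both gave -0.92. ZNF57 gave 79.4, 97.3 and 95.6 with calactin, against 207, 219 and 282 in untreated cells. The groups of ZNF57 did not overlap, and its log2 fold change was -1.23 (limma, SE 0.16, adjusted p = 0.000789). These 4 genes fell in every one of the alternatives that gave them a value, 19 for ZNF792 and 20 for the others, so also with replicates 1 and 2 alone.

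Another 4 named members fell by about 2-fold. ZNF555 had 32.5, 53.1 and 60.1 with calactin, against 98.0, 160 and 130 in untreated cells. Its other 3 probe sets were not called, and the mean of the 4 probe sets gave -0.41, below the size of -1.17 from the brightest, and was not called. ZNF558, which in human cells is known to repress the mitochondrial quality control gene SPATA18, gave 195, 233 and 213 with calactin, against 397, 618 and 450 in untreated cells. Its calactin arrays all lay below its untreated arrays, of which replicate 2 was the highest (limma, log2 fold change -1.11, SE 0.17, adjusted p = 0.00158). ZNF30 had 117, 209 and 170 with calactin, against 283, 403 and 357 in untreated cells, with a log2 fold change of -1.02. ZNF766 had 207, 256 and 234 with calactin, against 382, 613 and 475 in untreated cells, with a log2 fold change of -1.01. In both groups of both genes replicate 1 was the lowest, and the groups did not overlap.

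The other named falls were smaller, at log2 fold changes of -0.94 to -0.70. ZNF101 was called lower by 3 of its 3 probe sets, with 139, 150 and 155 with calactin for the brightest, against 213, 309 and 244 in untreated cells. ZNF765 was called lower by 2 of 3 probe sets, and its brightest gave 204, 158 and 158 with calactin, against 327, 352 and 309 in untreated cells. Neither gene had overlapping groups. ZNF222 had 37.0, 40.3 and 30.8 with calactin, against 57.4, 103 and 95.5 in untreated cells. ZNF579 had 38.6, 27.8 and 31.6 with calactin, against 83.3, 57.5 and 75.8 in untreated cells. Both are dim, and ZNF222 lost its call without calactin replicate 3 or untreated replicate 3. ZNF266 and ZNF121, which lie near each other, are described below with their promoters.

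Calls that were lost elsewhere came mostly under 3 settings. With replicates 1 and 2 alone, 16 of the 20 named members that had been called were no longer called, among them all 5 that rose. Poly-A spike scaling ended the calls of ZNF222, ZNF765, ZNF579, ZNF266, ZNF101, ZNF121 and ZNF473. Hybridisation spike scaling ended those of ZNF579, ZNF266, ZNF101, ZNF121, ZNF473, ZNF324 and ZNF175, and quantile normalization those of ZNF101 and ZNF473. Leaving out 1 array ended 6 named calls without calactin replicate 1, 3 without calactin replicate 2, 6 without calactin replicate 3, 2 without untreated replicate 1, 0 without untreated replicate 2 and 4 without untreated replicate 3.

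**Figure D2:**
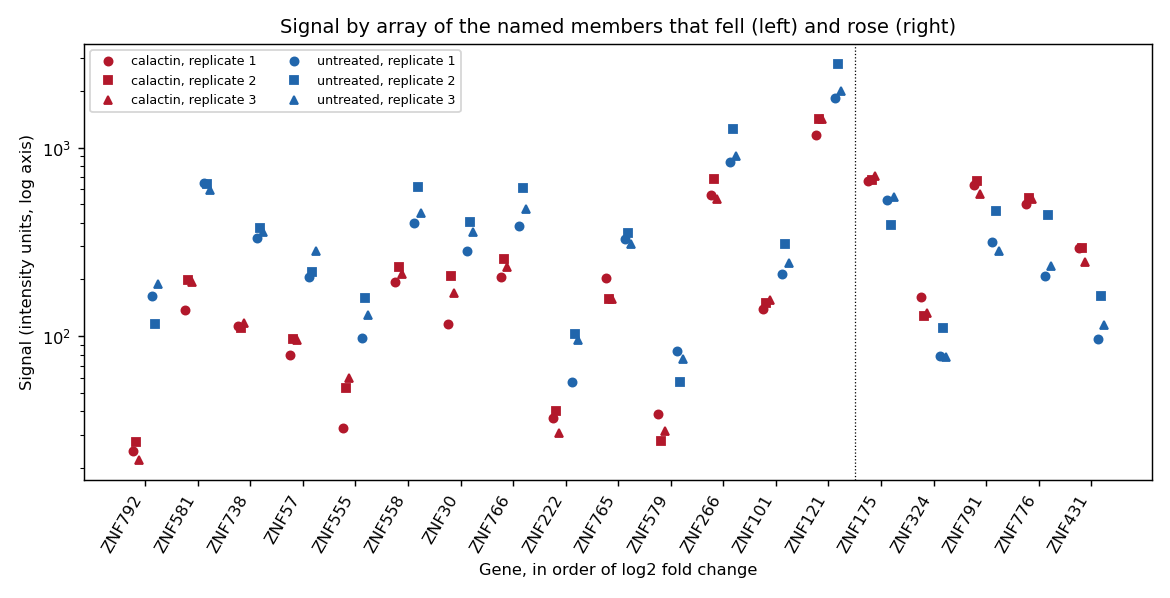
Signal of each array in intensity units on a log axis for the members named by rule that fell and that rose with calactin, with calactin arrays left of untreated arrays for each gene. The calactin arrays of ZNF792 lie at 22.1 to 27.4 and its untreated arrays at 116 to 189, and in ZNF431 the calactin arrays are the higher ones.

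Of the 25 members that fell, 10 were dim or past the limit of names and are given by count and range. They are ZNF823, ZNF442, ZNF90, ZNF607, ZNF404, ZNF114, ZNF615, ZNF550, ZNF416 and ZNF584. Their log2 fold changes ran from -1.12 in ZNF607 to -0.50 in ZNF584. ZNF607 had 24.5, 9.80 and 19.2 with calactin, against 58.1, 52.3 and 58.6 in untreated cells. ZNF442 had 11.2, 10.4 and 10.6 with calactin, against 36.7, 32.1 and 40.6 in untreated cells. Both sets of arrays were well apart, and ZNF442 also stayed called with replicates 1 and 2 alone. ZNF550, with 50.04, 61.3 and 51.5 with calactin against 69.7, 129 and 99.2 in untreated cells, had the adjusted p nearest the threshold (limma, 0.0488).

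The 5 members that rose were ZNF431, ZNF776, ZNF791, ZNF324 and ZNF175. ZNF431, whose mouse counterpart represses the Hedgehog receptor gene Patched, had 295, 295 and 247 with calactin, against 97.1, 164 and 115 in untreated cells. Each of its 3 probe sets passed the test as higher, and the groups did not overlap (limma, log2 fold change 1.09, SE 0.18, adjusted p = 0.00304). ZNF791 had 631, 662 and 568 with calactin, against 317, 460 and 282 in untreated cells, and was likewise called higher by 3 of 3 probe sets (limma, log2 fold change 0.81, SE 0.17, adjusted p = 0.00885). ZNF776 had 503, 544 and 535 with calactin, against 210, 441 and 236 in untreated cells. Its untreated replicate 2 lay close to the calactin arrays, and without that array its log2 fold change was 1.19 rather than 0.87. Leaving out any other array than that one ended its call. ZNF324, which has been linked to the cell cycle in human cells, had 161, 128 and 133 with calactin, against 78.4, 110 and 77.9 in untreated cells. Its groups were separate by a small margin (limma, log2 fold change 0.59, SE 0.17, adjusted p = 0.0415), and leaving out any array other than untreated replicate 2 ended its call. ZNF175, known as a repressor of the human immunodeficiency virus promoter in macrophages, had 664, 677 and 711 with calactin, against 527, 389 and 546 in untreated cells. Its brightest probe set rose by 0.49 on the log2 scale (limma, adjusted p = 0.0303). The second probe set of ZNF175 had 27.1, 28.5 and 26.9 with calactin, against 53.0, 33.8 and 63.96 in untreated cells. The 2 probe sets thus moved in opposite directions, the second without a call, and their mean gave -0.045. The call of ZNF175 was also lost when any calactin array was left out and with eBayes without a trend.

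The promoters of ZNF431 and ZNF791 are shown because every probe set of these 2 genes rose. Each runs from 250 bases before to 50 after the most upstream RefSeq transcript start, and capitals mark CCAAT on either strand. ZNF431 lies at chr19:21141790-21142089 and ZNF791 at chr19:12610670-12610969, both on the plus strand of GRCh38.p14.
ZNF431: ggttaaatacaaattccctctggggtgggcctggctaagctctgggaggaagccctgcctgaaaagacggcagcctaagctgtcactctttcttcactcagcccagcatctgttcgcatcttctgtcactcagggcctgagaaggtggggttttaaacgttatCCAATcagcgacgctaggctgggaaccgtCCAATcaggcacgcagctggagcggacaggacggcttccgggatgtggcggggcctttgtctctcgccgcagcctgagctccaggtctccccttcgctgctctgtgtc
ZNF791: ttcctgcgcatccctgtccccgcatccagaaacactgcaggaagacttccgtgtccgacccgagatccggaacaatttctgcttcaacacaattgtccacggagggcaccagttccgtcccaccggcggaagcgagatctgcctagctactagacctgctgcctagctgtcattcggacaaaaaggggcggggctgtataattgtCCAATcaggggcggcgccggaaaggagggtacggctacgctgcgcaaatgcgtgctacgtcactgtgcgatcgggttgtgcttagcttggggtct
CCAAT, sought on both strands, was in the promoters of 5 of 5 members that rose and of 10 of the 21 members that fell and had a promoter sequence. It was in 52.7% of 201 member promoters, in 42.6% of 209 promoters of other ZNF genes and in 35.7% of 27305 promoters of all genes. The motifs were chosen after values of the members had been seen, and a match describes the letters alone.

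Of the 14 members named for a described role, whatever their values, 2 were called, ZNF175 higher and ZNF473 lower, beside 4.93% and 16.5% of all genes. ZNF473, a component of the machinery that cuts the ends of histone transcripts, fell with 192, 248 and 205 with calactin, against 293, 363 and 359 in untreated cells. The groups did not overlap and both of its probe sets were called lower (limma, log2 fold change -0.62, SE 0.14, adjusted p = 0.0131). Its call was lost without calactin replicate 1, calactin replicate 3 or untreated replicate 3. ZNF274, which brings SETDB1 to the ends of other zinc finger genes, had 409, 580 and 499 with calactin, against 643, 1394 and 744 in untreated cells. All its calactin arrays were below its untreated arrays, and untreated replicate 2 stood well above the other 2. The log2 fold change was -0.81 and was not called (limma, SE 0.26, adjusted p = 0.0601), and without that array it was -0.48. Over the 20 alternatives the adjusted p ran up to 0.228, and 7 of them called it lower, among them the replicate block. The second probe set of ZNF274, with 98.7, 34.3 and 41.0 with calactin against 158, 109 and 133 in untreated cells, was called lower at -1.10.

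ZNF91 and ZNF93 are known to silence SVA and LINE elements in primates. ZNF91 had 102, 90.2 and 80.6 with calactin, against 97.8, 74.6 and 86.8 in untreated cells, which overlap. ZNF93 had 710, 921 and 828 with calactin, against 565, 810 and 652 in untreated cells, which overlap as well, though ZNF93 was higher in every same-numbered pair. Neither was called, at log2 fold changes of 0.07 and 0.28, and ZNF93 was called higher with the replicate block. The sign of ZNF91 turned with the mean of its probe sets, at -0.091, and without untreated replicate 2, at -0.020. The brightest probe set of ZNF93 is marked as shared sequence. Another of the same mark had 527, 597 and 560 with calactin, against 318, 403 and 387 in untreated cells, and was called higher at 0.59. The probe set taken first when unshared sequence is preferred, gave -0.58 without a call and was dim, at 9.86 to 22.0 with calactin and 24.0 to 39.0 in untreated cells. ZNF146, a short protein made of fingers with no KRAB domain, was among the members with the smallest SE, 0.08, at 2969, 2741 and 3270 with calactin, against 2912, 3043 and 3107 in untreated cells. The groups overlapped, and its log2 fold change of -0.02 became 0.073 after quantile normalization. Not called either were ZNF43 at 0.10, ZNF444, a SCAN domain protein, at 0.08, ZNF649 at 0.22 and ZNF331 at 0.36 on the log2 scale. ZNF350, a partner of BRCA1 in repression, stood at -0.31, ZNF224, a repressor of the aldolase A gene, at -0.19, ZNF296 at -0.25 and ZNF382 at -0.25, all without a call. Without untreated replicate 2, ZNF43 stood at 0.26, ZNF444 at -0.047, ZNF649 at 0.46, ZNF331 at 0.55, ZNF350 at -0.086, ZNF224 at -0.0029 and ZNF382 at -0.44, still without a call. Arrays of the 2 groups overlapped for ZNF350, with 22.4, 34.8 and 23.3 with calactin, against 19.01, 55.3 and 42.1 in untreated cells.

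Along chromosome 19, 209 members lay in 9 neighbourhoods of at least 5 members with no more than 5 other protein-coding genes between neighbours. These limits were set after values had been seen. Called members were spread over all 9, with 1 to 3 members that fell in each and 0 to 2 that rose. Over all members 10.7% fell and 2.14% rose, beside 16.5% and 4.93% of all genes. In the neighbourhood from ZNF554 to ZNF77 the falls of ZNF57 and ZNF555 stood beside 3 members that were not called, and the median of the 5 was -0.07. Of these 3, ZNF554 was read by a probe set marked as shared sequence, and its dimmer probe set was called lower at -1.06. ZNF554 was also called lower with the mean of its probe sets and when unshared sequence was preferred. In that from ZNF565 to ZNF573, 1 of 29 members fell, ZNF607, and in that from ZNF577 to ZNF331, 3 of 35 fell, ZNF615, ZNF766 and ZNF765. In that from ZNF787 to ZNF446, the longest with 54 members, ZNF550, ZNF416 and ZNF584 fell and ZNF776 and ZNF324 rose. The neighbourhood from ZNF101 to ZNF254 held the largest contrast, with ZNF738, ZNF101 and ZNF90 lower and ZNF431 higher among 28 members. ZNF430, next to ZNF431, had 422, 546 and 561.6 with calactin, against 272, 453 and 292 in untreated cells, with groups that overlap. It was named after its values were seen, its probe set is marked as shared sequence, and its log2 fold change of 0.59 was not called (limma, SE 0.20, adjusted p = 0.0662). ZNF430 was called higher in 8 of 20 alternatives, among them the replicate block, all 4 scalings and the fit without untreated replicate 2.

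**Figure D3:**
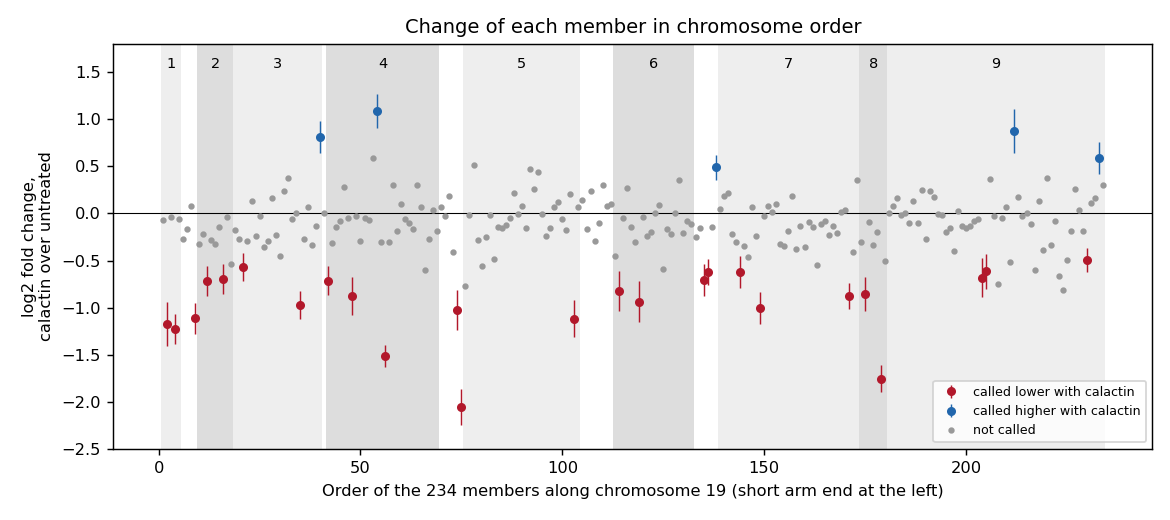
Log2 fold change of calactin over untreated for each of the 234 members in their order along chromosome 19, with the SE for called members. Shaded bands numbered 1 to 9 are the neighbourhoods, and called members lie in each of them, with ZNF792 at -2.06 the lowest member and ZNF431 at 1.09 the highest.

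In 3 neighbourhoods every member had a negative log2 fold change in the values as deposited, beside 68.8% of all members and 58.1% of all genes. Their least negative members stood at only -0.037, -0.042 and -0.086. With median centring 1 of these, the non-coding ZNF561-AS1 between ZNF317 and ZNF562, stood at 0.10, so the trait depended on the scaling. The neighbourhoods were that from ZNF554 to ZNF77 described above and the following. In that from ZNF628 to ZNF580, with 7 members and a median of -0.33, ZNF581 and ZNF579 fell. ZNF580, the immediate neighbour of ZNF581, had 307, 196 and 240 with calactin, against 448, 279 and 347 in untreated cells, which overlap, and was not called (limma, log2 fold change -0.50, adjusted p = 0.129). With the replicate block ZNF580 was called lower, and with poly-A spike scaling it stood at 0.066. Untreated replicate 2 was the highest untreated array for 1 of these 7. In the neighbourhood from ZNF317 to ZNF562, with 9 members and a median of -0.32, ZNF266 and ZNF121 fell. Here untreated replicate 2 was the highest for 8 of 9. ZNF266 had 560, 682 and 537 with calactin, against 838, 1248 and 897 in untreated cells. ZNF121 had 1161, 1410 and 1420 with calactin, against 1820, 2778 and 1988 in untreated cells. The groups of both were separate, at log2 fold changes of -0.72 and -0.70 (limma, SE 0.16 each, adjusted p = 0.0120 and 0.0123), and at -0.54 and -0.52 without untreated replicate 2. Both calls were lost without calactin replicate 1, and that of ZNF266 also without calactin replicate 3. ZNF562 had 151, 216 and 184 with calactin, against 257, 339 and 230 in untreated cells. Its groups were separate as well, at -0.54 and with no call (limma, SE 0.18, adjusted p = 0.0662), and with the replicate block ZNF562 was called lower. ZNF317 had 489, 590 and 503 with calactin, against 613, 781 and 605 in untreated cells, also with separate groups. It stood at -0.32 with no call, at -0.21 without untreated replicate 2, and was called lower with the replicate block. With poly-A spike scaling ZNF562 stood at 0.021 and ZNF317 at 0.26, neither called.

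ZNF121, ZNF266 and ZNF562 are shown with their promoters because these share a long run of letters. Capitals mark GCGGAAGTGACGTCA, the longest run of letters that the 3 promoters share, which ends in the cyclic AMP response element TGACGTCA. The promoter of ZNF317 does not hold it. On either strand it was in 4 of the 201 member promoters, these 3 by construction and that of the neighbouring non-coding ZNF561-AS1. It was in 10 of the 27305 promoters of all genes, or 0.0366%. The sequences are from RefSeq on GRCh38.p14. All 3 lie on the minus strand, ZNF121 at chr19:9584455-9584754, ZNF266 at chr19:9435524-9435823 and ZNF562 at chr19:9675051-9675350.
ZNF121: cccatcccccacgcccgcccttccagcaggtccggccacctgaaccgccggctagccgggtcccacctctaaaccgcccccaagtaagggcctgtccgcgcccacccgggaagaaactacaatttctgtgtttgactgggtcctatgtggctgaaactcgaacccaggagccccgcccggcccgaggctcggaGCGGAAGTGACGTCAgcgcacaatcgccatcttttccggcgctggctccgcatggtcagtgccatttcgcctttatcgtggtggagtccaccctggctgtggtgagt
ZNF266: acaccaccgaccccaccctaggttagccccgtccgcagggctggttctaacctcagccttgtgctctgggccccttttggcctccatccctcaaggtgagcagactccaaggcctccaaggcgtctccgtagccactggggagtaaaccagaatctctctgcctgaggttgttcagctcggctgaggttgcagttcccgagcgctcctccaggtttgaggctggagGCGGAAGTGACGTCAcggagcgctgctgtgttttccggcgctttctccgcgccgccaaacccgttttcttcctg
ZNF562: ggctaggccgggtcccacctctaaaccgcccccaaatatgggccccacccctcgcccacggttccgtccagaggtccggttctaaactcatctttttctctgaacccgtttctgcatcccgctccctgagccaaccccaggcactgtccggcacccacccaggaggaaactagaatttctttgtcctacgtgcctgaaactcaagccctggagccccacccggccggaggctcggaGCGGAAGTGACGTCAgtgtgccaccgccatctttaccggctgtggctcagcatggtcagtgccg
In the 40 bases on each side of the run, ZNF121 and ZNF562 were identical at 82.5% of 80 positions, and ZNF121 and ZNF266 at 38.8%. Letters were compared position by position without gaps, so a stretch shared out of step is not aligned. The printed promoters of ZNF121 and ZNF266 hold such a stretch after the run. ZNF561-AS1, with 21.9, 31.2 and 13.8 with calactin against 19.1, 30.1 and 19.8 in untreated cells, had a log2 fold change of -0.042, and of 0.085 without untreated replicate 2. Its groups overlapped, and it was not called. The run was sought after the values of the members had been seen and describes letters alone.

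Over the 201 members with a promoter sequence, the ratio of observed to expected CpG was 0.78 at the median, against 0.82 over 209 promoters of other ZNF genes and 0.58 over all 27305 promoters. The GC box GGGCGG was in 63.7% of member promoters, 61.2% of those of other ZNF genes and 44.5% of all. The ETS core CCGGAAG was in 41.8% of member promoters, 34.9% of those of other ZNF genes and 10.6% of all. The cyclic AMP response element TGACGTCA, which overlaps the longer run above, was in 3.98%, 4.78% and 1.97% in the same order. The TATA box TATAAA was in 2.99% of member promoters, 3.83% of those of other ZNF genes and 12.0% of all. The other ZNF genes were thus much like the members in these features. All motifs were sought on both strands. Of the 21 members that fell and had a promoter sequence, 14 held GGGCGG and 8 held CCGGAAG. Of the 5 that rose, 2 held GGGCGG and 4 held CCGGAAG.

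A list of 43 genes of silencing factors was examined, of which 42 were measured. It holds partners of KRAB zinc finger proteins such as TRIM28 and SETDB1, and not every gene on it is known to be recruited by them. Of these 42, 16 fell, 4 rose and 22 were not called, with a median log2 fold change of -0.21. The share that fell was 38.1%, and 41 of the 42 lay above the median signal, where 29.3% of all genes fell. The share that rose was 9.52%, beside 9.10% of all genes above the median signal. TRIM28, which KRAB domains bind directly, had 5239, 4263 and 3961 with calactin, against 5017, 4140 and 4198 in untreated cells. Its groups overlapped and its log2 fold change was 0.01 (limma, SE 0.12, adjusted p = 0.982), with a sign that turned to -0.11 without calactin replicate 1. SETDB1, which writes the silencing mark, fell with 263, 263 and 234 with calactin, against 429, 313 and 443 in untreated cells. Its groups were separate (limma, log2 fold change -0.59, SE 0.15, adjusted p = 0.0204), and 10 of 20 alternatives ended the call, among them quantile normalization and leaving out any array other than untreated replicate 2. DNMT3B, a DNA methyltransferase, had 737, 797 and 859 with calactin, against 1980, 1988 and 2325 in untreated cells. It fell by 1.38 on the log2 scale, with separate groups. DAXX, a chaperone of histone variant H3.3, fell by 1.19, DNMT3A, a second DNA methyltransferase, by 1.15, and EHMT2, a histone methyltransferase, by 0.91. With the mean of their probe sets, DNMT3A stood at -0.57 and EHMT2 at -0.43, both still called. MORC3 at 0.53, POGZ at 0.65, GATAD2B at 0.84 and MBD3 at 0.56 rose, and the last 3 lost their calls with the mean of their probe sets. The calls of DNMT3B, DAXX, DNMT3A and MORC3 held in all 20 alternatives.

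**Figure D4:**
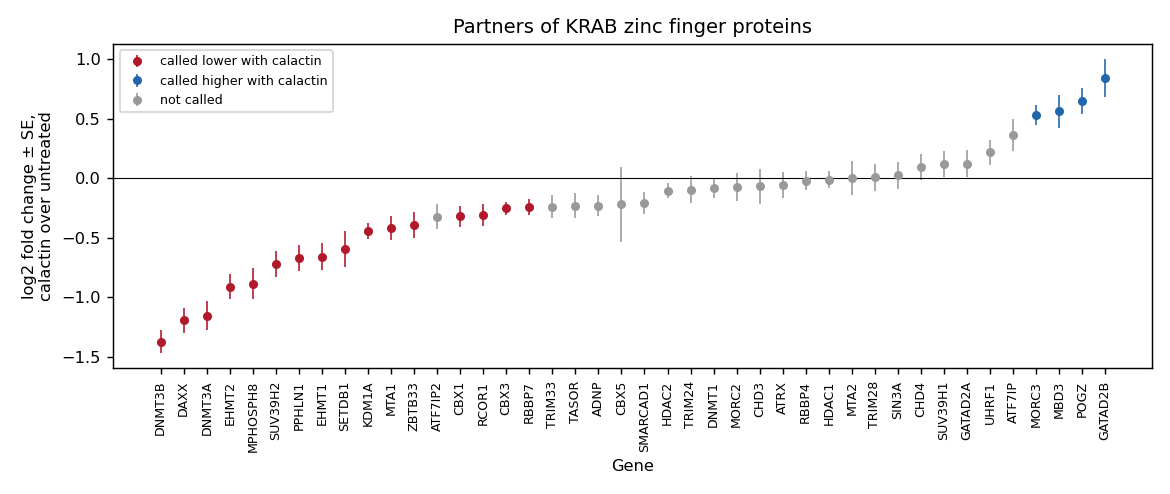
Log2 fold change of calactin over untreated, with its SE, for the 42 measured genes of the list of silencing factors. DNMT3B at -1.38 is the lowest and GATAD2B at 0.84 the highest, with TRIM28 near 0.

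Against the rest of the series, the members had a smaller share of calls in the reported setting, which is given as a description with no test. The size of this gap depended on the setting. With hybridisation spike scaling 6.84% of the members fell, beside 7.59% of all genes, and with poly-A spike scaling 5.13%, beside 5.30%. With the replicate block 17.1% of the members fell, beside 20.2% of all genes. The shares that follow are those of the reported setting. The share that fell was 10.7% in the members, 21.6% in other ZNF genes and 14.9% in other genes of chromosome 19. The share that rose was 2.14% in the members, 4.10% in other ZNF genes and 4.42% in other genes of chromosome 19. Above the median signal, 15 of 116 members fell, or 12.9%, against 26.4% of other ZNF genes, 24.5% of other genes of chromosome 19 and 29.3% of all genes. This cut did not match the sets in signal or precision. Above it the array medians were 7.46 to 8.14 (log2) for the members and 8.88 to 9.17 for all genes. The median SE was 0.17 and 0.12 in the same order. The largest fall of a member, ZNF792 at -2.06, was smaller than that of other ZNF genes, -3.05, and the largest rise, ZNF431 at 1.09, smaller than theirs, 1.78. The median log2 fold change was -0.13 in the members, -0.14 in other ZNF genes and -0.06 in other genes of chromosome 19. The members' values also varied more among replicates in this unpaired fit, with a median SE of 0.18 against 0.16 over all genes. With the replicate block the medians were closer, at 0.159 and 0.150.

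**Figure D5:**
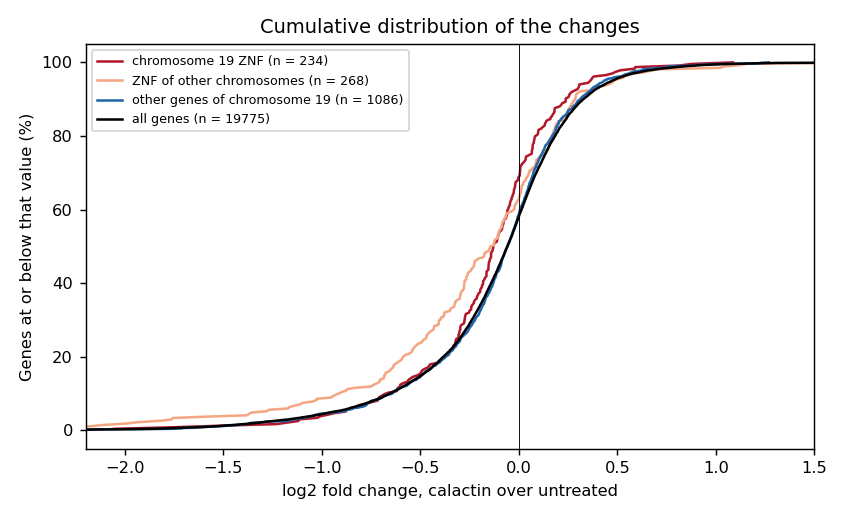
Cumulative distribution of the log2 fold change of calactin over untreated for the members, other ZNF genes, other genes of chromosome 19 and all genes, as the share of genes at or below each value. The members' curve crosses 50% at -0.13, beside -0.06 for all genes, and this median turned to 0.0089 after quantile normalization.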

How the data were processed

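RNA of 3 calactin and 3 untreated K562 samples was measured. The deposited values are linear intensity, 1 per probe set and array, as processed by the authors. The sources used here do not give the summary algorithm or any scaling. Biotinylated cRNA was made from total RNA extracted with Trizol, per the labels' protocols. No further scaling was applied. Of 54675 probe sets, 41091 carried 1 symbol in the platform annotation, and those with several symbols were left out, among them 21 that name a chromosome 19 ZNF gene. Chromosome and gene order came from RefSeq annotation, and promoters from RefSeq on GRCh38.p14, of which 201 members had one. Protein features were not analysed here.

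Values were turned into log2(intensity + 16), which understates the change of dim genes. limma 3.58.1 (lmFit, eBayes with trend) in R 4.3.3 was fitted to all 19775 genes, with 4 residual degrees of freedom per gene, two-sided, with Benjamini-Hochberg adjustment and a threshold of 0.05. A fold change is calactin over untreated. The fit was tested on simulated data. Tables used pandas 2.3.3 and plots matplotlib 3.10.9. Members named were up to 14 falls and 14 rises that were called, had separate arrays and a brighter group above the median signal, plus 14 genes chosen for known roles, whatever their values. Members, lists and alternatives were chosen with earlier results of these data known. The alternatives were 4 scalings, 2 pseudocounts (1 and 64), a filter on dim genes, 3 treatments of probe sets, 2 forms of eBayes, the replicate block, replicates 1 and 2 alone and each array left out.

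Replicate numbers came from the sample titles. Deviations from the group means of same-numbered samples correlated at 0.544, 0.409 and 0.345 over 9887 genes above the median signal. From these values the numbers were taken to pair the samples. Samples of different number correlated at -0.0084 at most. Subtracting the group means makes the covariances of a sample with the other group sum to 0. The low values for different numbers are thus partly fixed in advance and are no separate support. The reported fit leaves this pairing out, so its calls, SE and adjusted p are those of an unpaired comparison. The fit with the replicate block is given as an alternative, with 40 falls and 7 rises beside 25 and 5.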

Additional observations from a re-analysis of the deposited data

How the results depend on the processing

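Counts of called members depended on the setting more than the large falls did. Falls numbered 16 with hybridisation spike scaling, 12 with poly-A spike scaling (which includes the replicate block), 40 with the replicate block and 5 with replicates 1 and 2 alone, beside 25 in the reported setting. Leaving out 1 array gave 15 (without calactin replicate 3) to 30, and the other alternatives stayed within 1.5 times. Rises numbered 10 with quantile normalization, 8 with median centring, 71 with poly-A spikes, 3 with eBayes without a trend and 0 with replicates 1 and 2 alone, beside 5. Leaving out 1 array gave 2 to 8 (without untreated replicate 2). The member median was 0.0089 with quantile normalization, 0.016 with median centring, -0.035 with hybridisation spikes and 0.30 with poly-A spikes, where all genes had 0.34, and -0.18 to -0.084 with 1 array left out. Of the 268 other ZNF genes, those called lower were 29 with hybridisation spikes, 25 with poly-A spikes and 28 with replicates 1 and 2 alone, and 49 to 60 with 1 array left out. Those called higher were 29 with quantile normalization, 18 with median centring, 91 with poly-A spikes, 18 with the replicate block, 6 with replicates 1 and 2 alone and 8 to 15 with 1 array left out. Of the 1086 other genes of chromosome 19, those called lower were 106 with quantile normalization, 78 with hybridisation spikes and 54 with poly-A spikes. They were 69 with replicates 1 and 2 alone and 119 to 156 with 1 array left out. Of the 42 silencing genes, those called lower were 9 with median centring, 6 with hybridisation spikes and 3 with poly-A spikes. They were 7 with replicates 1 and 2 alone and 11 to 14 with 1 array left out. Those called higher were 27 with poly-A spikes, 2 with the mean of probe sets, 7 with unshared sequence first, 1 with replicates 1 and 2 alone and 3 to 4 with 1 array left out. With 1 array left out, 12.1% to 15.3% of all genes were called lower and 3.26% to 5.13% higher. Signs turned mostly among genes that were not called. ZNF146 was at 0.073 with quantile normalization, 0.13 with median centring, 0.093 with hybridisation spikes, 0.58 with poly-A spikes and 0.027 with the mean of probe sets. With poly-A spikes ZNF350 was at 0.090, ZNF224 at 0.27 and ZNF296 at 0.24. With the mean of probe sets ZNF175, a called gene, was at -0.045, ZNF91 at -0.091, ZNF224 at 0.013 and ZNF444 at -0.060. ZNF93 was at -0.58 with unshared sequence first, and ZNF43 at -0.021 with replicates 1 and 2 alone. With 1 array left out, ZNF146 ran from -0.081 to 0.045, ZNF91 from -0.020 to 0.14, ZNF43 from -0.021 to 0.26, ZNF444 from -0.047 to 0.18 and TRIM28 from -0.11 to 0.096. The cause was not tested, except that leaving out arrays leaves fewer samples. The replicate block ended no call of a named member. Low signal limits the 118 members below the median signal, whose changes the pseudocount understates.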
